A study of Caenorhabditis elegans with 32 samples.

Results

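Small RNAs counted in gonads of meg-3;meg-4 double mutants at the F15 generation of a cross were compared with those of wild type. The comparison rests on 6 of the 32 libraries of the series, 3 per group, chosen by their labelled genotype and cross. The mutants carry meg-3(tm4259), meg-4(ax2026) and the mex-5::gfp::h2b::tbb-2 transgene, and descend from a SX1263 hermaphrodite mated with a BFF40 male. Wild type is the SX1263 strain, whose transgene, Pmex-5::gfp::h2b::tbb-2, is the insertion mjIs134 on chromosome II. The groups thus share a transgene that makes a green fluorescent histone in the germline under the mex-5 promoter. They also share growth at 20 °C on E. coli OP-50, dissection of gonads from young adults, column-kit RNA extraction (miRNeasy) and NEBNext small RNA libraries. The labels give neither the number of gonads per library nor whether replicates came from separate worm populations or cross lines. The p-values therefore measure the spread between libraries, which may be technical. That spread was estimated over all 21 column-kit libraries of the series, not over these 6 alone.

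Germ granules are condensates of RNA and protein at the nuclear periphery of germ cells. MEG-3 and MEG-4 are intrinsically disordered proteins that P granules, 1 kind of germ granule, need to form properly in the embryo. In C. elegans germ cells RNA-dependent RNA polymerases copy messenger RNAs into short antisense RNAs, which Argonaute proteins carry and which can silence or license the gene they match, in part across generations. The values below are therefore small RNAs assigned to a gene, not transcripts of that gene. Levels are given in CPM, that is, scaled so that the feature counts of a library sum to 1e+06, and say nothing of the level of 1 gene relative to another without its length.

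The F15 libraries held 8134475, 8326664 and 10936979 counts assigned to features, against 4470913, 5973759 and 14871375 in wild type. The detection floor of 3 counts lay between 0.202 and 0.671 CPM in the 6 libraries. Replicates correlated across features with Pearson's r of 0.940 to 0.973 in F15 mutants and 0.961 to 0.974 in wild type, and no pair agreed within sampling noise (chi-square of 11.7 to 144 for each degree of freedom). The filter on low counts (at least 10 counts in at least 3 of the 21 column-kit libraries) was passed by 10230 of 46779 features. It was passed by 56 of 57 listed germline and oocyte genes, against 14 of 33 markers of somatic tissues. As the counts are of small RNAs against genes, this does not establish the tissue. The third F15 library stood apart from the other F15 libraries. In it 228 features lay over 4-fold above and 926 over 4-fold below the wild-type mean. The same numbers were 100 above and 264 below in the first F15 library and 112 above and 294 below in the second. Single wild-type libraries, each set against the mean of the other wild-type libraries, had 19 to 70 above and 28 to 73 below.

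Of 10230 features tested, 898 (8.78%) were called at a Benjamini-Hochberg adjusted p-value under 0.05 in edgeR's quasi-likelihood test, 263 of them higher (2.57%) and 635 lower (6.21%) in F15 mutants. The called increases had a median log2 fold change of 1.66, and 106 exceeded 4-fold. Their decreased counterparts had a median of -1.96, and 303 exceeded 4-fold, while the median over all tested features was 0.05. An unadjusted p under 0.05 was reached by 2261 features (22.1%). Without the third F15 library 505 features were called, 134 higher and 371 lower, and 481 of them were among the 898. The main fit had no block for the replicate number. With such a block, fitted on the 6 libraries alone, 479 were called, 93 higher and 386 lower, and 425 of them were among the 898.

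The called features also shifted in their part of all small RNA counts. The features called higher took 11.11%, 11.43% and 18.8% of all feature counts in the F15 libraries, against 4.47%, 4.64% and 4.86% in wild type. Those called lower took 2.76%, 2.47% and 1.31% in the F15 libraries, against 8.98%, 8.65% and 8.56% in wild type. The third F15 library was the farthest from wild type in both directions. It was the highest F15 library for 139 of the 263 increases and the lowest for 538 of the 635 decreases. These shares describe features chosen on the same libraries. A second set of 3 wild-type libraries, extracted with a phenol reagent and used in no test here, had 4.90% to 5.21% in the features called higher and 8.26% to 9.65% in those called lower.

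**Figure D1:**
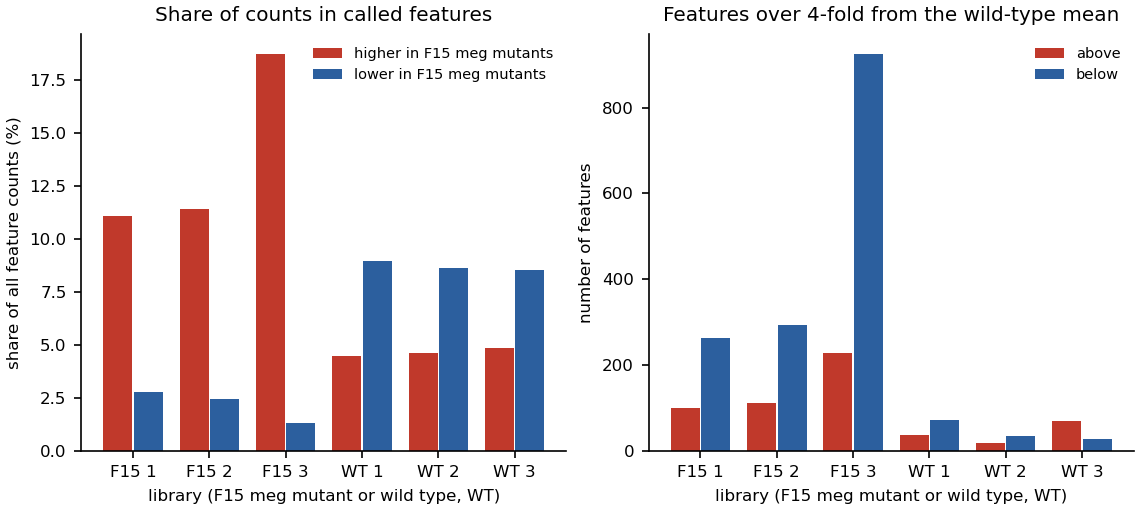
Share of feature counts (%) in the features called higher (red) and lower (blue) in F15 meg mutants, left. Number of features over 4-fold above (red) or below (blue) the wild-type mean (log2 CPM scaled as in the test), right. A wild-type library is set against the mean of the other wild-type libraries. Each pair of bars is 1 library, F15 meg mutants left of wild type (WT). The third F15 library reached 18.8% in the features called higher and had 926 features below, more than the other F15 libraries.

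In 2502 tested features (24.5%) the F15 and wild-type libraries did not overlap. All F15 libraries lay above all wild-type libraries for 681 features (6.66%) and below them for 1821 (17.8%). These counts also use CPM without the scaling of the test, and what that adds to the excess below was not tested. Among the called features, 237 of 263 increases and 630 of 635 decreases did not overlap. Of the increases, 191 also lay above every phenol wild-type library, against 17.5% of all tested features that did. Of the decreases, 588 also lay below every phenol wild-type library, against 22.2% of all tested features. Extraction and experiment coincide in the phenol libraries, so what either contributes cannot be told apart.

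**Figure D2:**
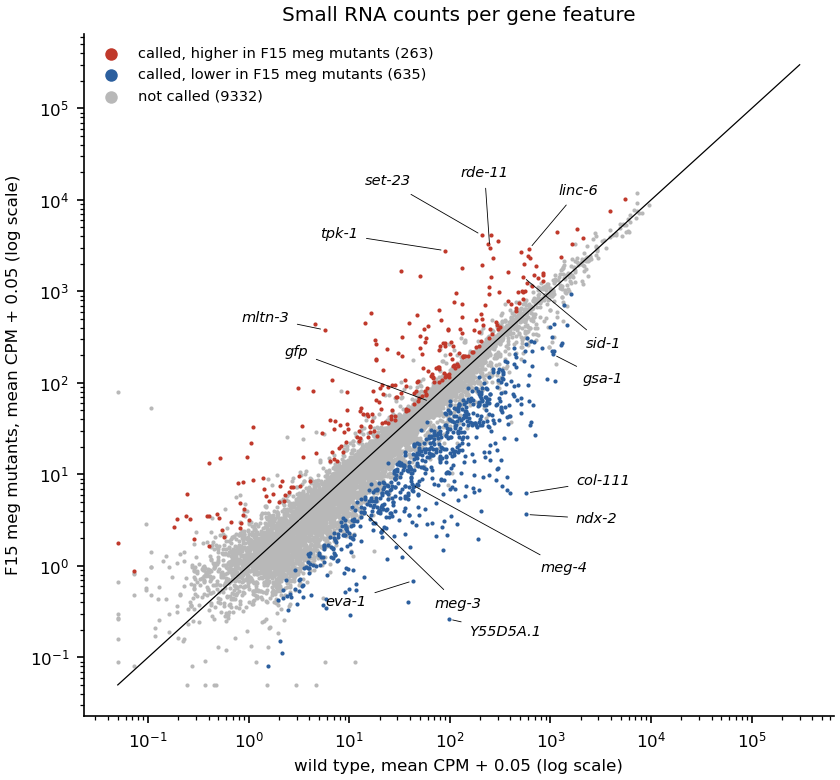
Mean CPM of each of the 10230 tested features in F15 meg mutants (y axis) and in wild type (x axis), n = 3 libraries each, both on log scales after adding 0.05; the line marks equal levels. The 263 features called higher (red) lie above the line and the 635 called lower (blue) below it, and gfp lies on it.

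The small RNAs against the mutated genes themselves fell. The meg-3 gene (chromosome X, 1986469 to 1989607, WBcel235 annotation) had 5.90, 3.36 and 2.29 CPM in F15 mutants, against 10.3, 16.4 and 15.1 CPM in wild type. Its log2 fold change was -1.74 (SE 0.37, adjusted p = 0.00485, edgeR), and with the replicate block the adjusted p was 0.0728. The meg-4 gene (chromosome X, 1682954 to 1686419) had 11.06, 8.41 and 3.66 CPM in F15 mutants, against 43.6, 40.3 and 40.6 CPM in wild type. Every F15 library lay below every wild-type library for both genes. For meg-4 the log2 fold change was -2.34 (SE 0.63, adjusted p = 0.0243, edgeR). That call was lost without the third F15 library (adjusted p = 0.124, log2 fold change -2.11), the second F15 library (0.0639), the first wild-type library (0.0615) or the second wild-type library (0.0519), and with limma-voom (0.0518). The labels do not give the extent of either allele, and each feature covers the whole gene, so these values do not measure the deletions.

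Within 20000 bases of meg-3, small RNAs against 2 other features were called higher and those against 1 lower, all outside the rule for named genes and singled out after their values were seen. The long intergenic RNA gene linc-6, 3585 bases from meg-3, had 2293, 2590 and 3878 CPM in F15 mutants, against 656, 674 and 519 CPM in wild type (a log2 fold change of 2.46, SE 0.27, adjusted p = 1.23e-05, edgeR; 0.0559 with the replicate block). F52D2.14, 3533 bases from meg-3, had 36.3, 23.9 and 90.3 CPM in F15 mutants, against 4.47, 6.03 and 18.0 CPM in wild type (2.63, SE 0.59, adjusted p = 0.00764; 0.107 without the third F15 library). The lower feature, F52D2.12, 5526 bases from meg-3, had 25.6, 23.7 and 15.2 CPM in F15 mutants, against 27.7, 65.5 and 38.7 CPM in wild type (-0.90, SE 0.26, adjusted p = 0.0324). Its call was lost without any 1 of the F15 libraries, in order (adjusted p = 0.0553, 0.0686 and 0.119), without the second wild-type library (0.253) and with the replicate block (0.148). The libraries of the groups did not overlap for any of them. These features share annotated bases with other genes or lie close together, and the labels do not say whether strand was used in counting. Near meg-4, a feature 1067 bases away was also called higher (log2 fold change 2.65, SE 0.46, adjusted p = 0.000807, edgeR).

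Transgene-derived small RNAs did not differ detectably. The gfp feature had 55.7, 62.5 and 68.4 CPM in F15 mutants, against 50.996, 65.8 and 75.3 CPM in wild type (a log2 fold change of 0.15, SE 0.20, adjusted p = 0.697, edgeR). The ranges overlapped. The endogenous genes that lent their sequences to the transgene, mex-5 and tbb-2, had log2 fold changes of 0.09 (SE 0.19) and 0.08 (SE 0.29), and none of the 5 transgene parts was called by edgeR, DESeq2 or limma-voom, or had an unadjusted p under 0.05 in edgeR.

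Among genes that act in RNA interference (RNAi) and small RNA inheritance, small RNAs against sid-1 and rde-11 were higher. SID-1 is a membrane channel that imports double-stranded RNA into cells. The sid-1 gene (chromosome V, 5119970 to 5126916) had 1099, 911 and 2317 CPM in F15 mutants, against 521, 549 and 531 CPM in wild type. All F15 libraries lay above wild type, the third the farthest. Its log2 fold change was 1.70 (SE 0.34, adjusted p = 0.00291, edgeR) and 0.90 without the third F15 library (adjusted p = 0.0126). The adjusted p was 0.154 with the replicate block and 0.0960 in a fit of the 6 libraries alone.

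RDE-11 is a zinc finger protein that RNAi needs for the amplification of silencing. The rde-11 gene (chromosome IV, 13105200 to 13106927) had 1235, 1884 and 5880 CPM in F15 mutants, against 172, 227 and 349 CPM in wild type. The lowest F15 library lay above the highest wild-type library. Its log2 fold change was 3.92 (SE 0.54, adjusted p = 0.000109, edgeR) and 2.65 without the third F15 library (adjusted p = 0.000119). Its neighbour B0564.2, 731 bases away, is described with the largest increases.

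Of 30 tested RNAi and inheritance genes, edgeR called sid-1 and rde-11 higher (6.67%, against 2.57% of all features) and none lower (against 6.21%). DESeq2 also called 2 higher and limma-voom 4, while with the replicate block or in the 6 libraries alone edgeR called 1. The list's median log2 fold change was 0.23. None of 17 Argonaute genes, 13 RNA-dependent RNA polymerase and mutator genes and 13 piRNA pathway genes was called by edgeR, against 8.78% of all features. Their medians were 0.28, 0.21 and 0.32. At an unadjusted p under 0.05, edgeR had 4 Argonaute genes, 4 polymerase and mutator genes and 2 piRNA pathway genes, against 22.1% of all features. By limma-voom 3 of the Argonaute genes were called higher, by DESeq2 1 was, and neither tool called a polymerase, mutator or piRNA pathway gene. Small RNAs against csr-1, an Argonaute that licenses germline genes, averaged 665 ± 101 CPM in F15 mutants and 508 ± 16.3 CPM in wild type (SD, n = 3 each; log2 fold change 0.54, adjusted p = 0.0515). The nuclear inheritance Argonaute hrde-1 averaged 753 ± 29.9 CPM in F15 mutants and 717 ± 55.03 CPM in wild type (0.25, adjusted p = 0.373). The Piwi Argonaute prg-1 averaged 533 ± 50.9 CPM in F15 mutants and 481 ± 35.5 CPM in wild type (0.32, adjusted p = 0.312).

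Of 20 tested germ granule genes, meg-3 and meg-4 were lower (10%, against 6.21% of all features) and mip-2 was higher (5%, against 2.57%). The median log2 fold change was 0.16. MIP-2 is a LOTUS domain protein that binds MEG-3. It had 268, 257 and 221 CPM in F15 mutants, against 172, 182 and 195 CPM in wild type (a log2 fold change of 0.59, adjusted p = 0.0173, edgeR). The call was lost without the third F15 library (adjusted p = 0.0903), the first wild-type library (0.0604) or the second wild-type library (0.0694), with the replicate block (0.0888) and with total-count scaling (0.173). Core P granule genes showed values close to wild type: pgl-1 averaged 274 ± 21.5 CPM in F15 mutants and 258 ± 40.2 CPM in wild type, and the helicase gene glh-1 392.1 ± 66.3 CPM in F15 mutants and 391.98 ± 27.8 CPM in wild type (SD, n = 3 each).

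**Figure D3:**
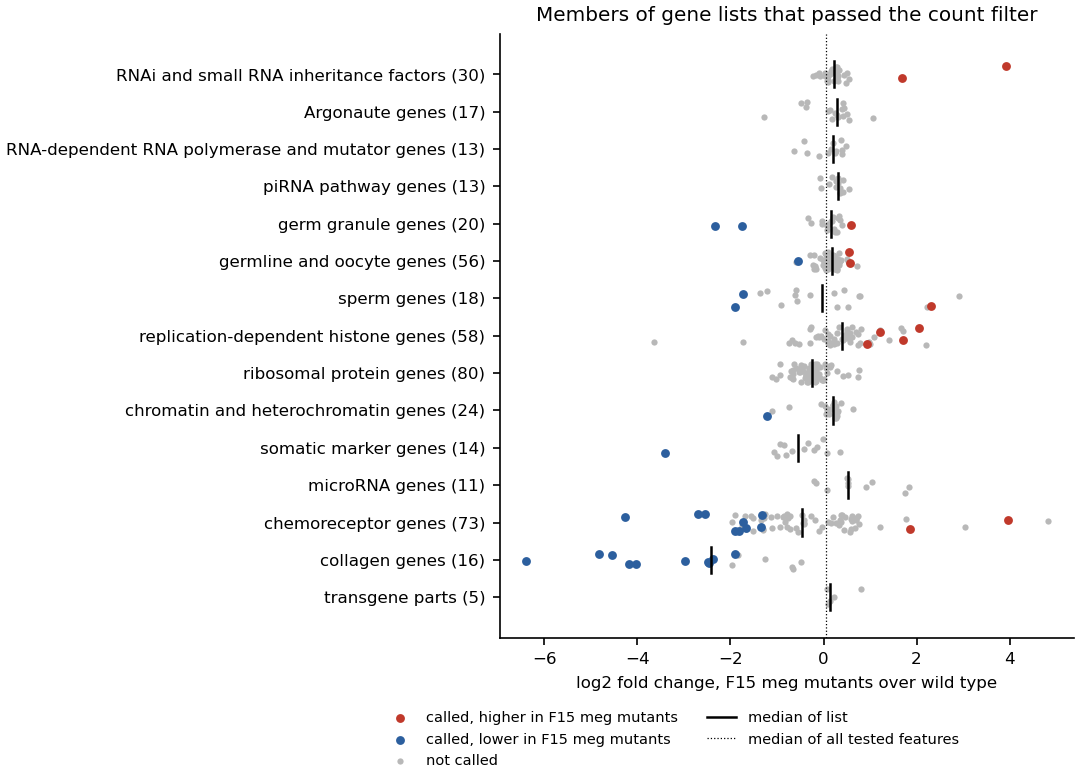
Log2 fold change, F15 meg mutants over wild type, of each member of 15 gene lists that passed the filter on low counts (number in brackets); red and blue points were called, grey points were not, the short bar is the median of the list and the dotted line the median of all tested features. Collagen genes lie to the left, with 10 of 16 called lower, and sid-1 and rde-11 are the called points of the RNAi list.

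Small RNAs against collagen genes were lower. Collagens are the structural proteins of the worm's cuticle, made mainly by the epidermis. Of 159 collagen genes 16 passed the filter and 10 of them were called lower, none higher, with a median log2 fold change of -2.43. Only 8 of the 16 had at least 10 counts in all 3 F15 and all 3 wild-type libraries, and 5 of these were called lower, against 532 of 7990 such features overall (6.66%). Genes that entered through their wild-type counts had to be lower in F15 mutants, so the count over the 16 is a description. Without the third F15 library 6 were called lower. Another annotated gene overlaps 8 of the 16, so their counts are uncertain.

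The most changed collagen was col-111 (chromosome IV, 4655791 to 4657974), with 4.06, 9.97 and 4.57 CPM in F15 mutants, against 631, 598 and 496 CPM in wild type (a log2 fold change of -6.40, SE 1.39, adjusted p = 0.00591, edgeR). It shares bases with psr-1 on the opposite strand. The col-38 gene had 4.79, 4.08 and 1.37 CPM in F15 mutants, against 91.0, 122 and 94.4 CPM in wild type (-4.82, SE 0.55, adjusted p = 1.49e-05). For col-162 the levels were 1.72, 2.28 and 0.731 CPM in F15 mutants, against 49.4, 35.2 and 34.6 CPM in wild type (-4.55, SE 0.74, adjusted p = 0.000478). No F15 library came near wild type for these genes, which overlap no other coding gene except for col-111. The most abundant collagen in wild type, col-71, was not called. It had 52.6, 761 and 21.7 CPM in F15 mutants, against 1081, 1061 and 964 CPM in wild type (adjusted p = 0.236), so its second F15 library lay far above the others. Summed over all 159 collagen genes, whether or not they passed the filter, the level was 185, 1061 and 113 CPM in F15 mutants. In wild type it was 2654, 2612 and 2302 CPM.

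**Figure D4:**
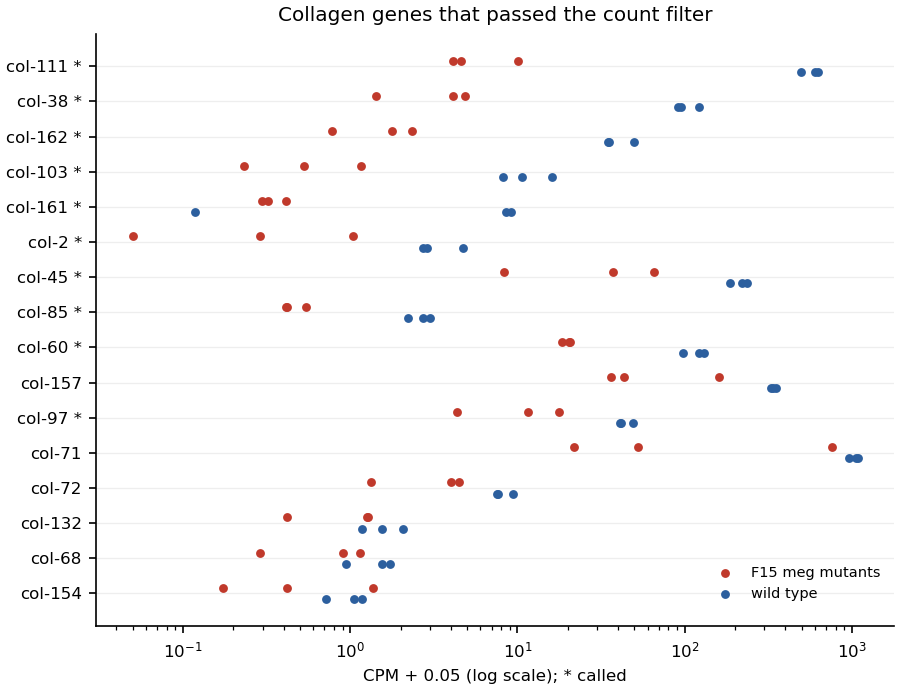
CPM + 0.05 (log scale) of the 16 collagen genes that passed the filter, ordered by log2 fold change; each point is 1 library, F15 meg mutants (red) above wild type (blue), and an asterisk marks a called gene. The F15 points of col-111 lie below 10 CPM, against 496 CPM or more in wild type, while col-71 has 1 F15 library at 761 CPM.

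Genes of other somatic tissues gave few counts. Of 14 tested somatic markers only unc-54, the myosin heavy chain of body wall muscle, was called (7.14% lower, against 6.21% of all features). It had 1.72, 0.600 and 0.274 CPM in F15 mutants, against 8.72, 11.4 and 9.21 CPM in wild type (a log2 fold change of -3.41, SE 0.68, adjusted p = 0.00300, edgeR). The median of the tested markers was -0.55 with 12 of 14 negative. Summed over all 33 listed markers, whether or not they passed the filter, the level was 127, 145 and 129 CPM in F15 mutants. In wild type it was 142, 161 and 182 CPM. What somatic tissue in the dissections contributes to the differences was not tested. In such bulk gonad libraries fewer cells with a small RNA and less of it per cell cannot be told apart.

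The unc-54 decrease lies in a cluster on chromosome I. The chemoreceptor gene str-245 lies 1189 bases from it and had 0.861, 6.85 and 0.823 CPM in F15 mutants, against 33.6, 57.1 and 86.5 CPM in wild type (a log2 fold change of -4.28, SE 0.92, adjusted p = 0.00526, edgeR). The aex-5 gene, which overlaps str-245 and was named after its values were seen, had 0.861, 2.28 and 0.457 CPM in F15 mutants, against 25.1, 23.4 and 51.04 CPM in wild type (-4.67, SE 0.79, adjusted p = 0.000698). Within 17976 bases of str-245, eva-1 (a receptor that acts in axon guidance; 14829732 to 14834841) had 0.983, 0.841 and 0.0914 CPM in F15 mutants, against 41.4, 42.4 and 45.5 CPM in wild type (-5.99, SE 0.52, adjusted p = 1.10e-06). F15 and wild-type libraries were separate for all of these genes. In the phenol wild-type libraries eva-1 had 3.88 to 5.63 CPM, str-245 3.23 to 9.17 CPM and unc-54 2.59 to 5.53 CPM, so the distance to that second wild-type set was smaller and str-245 overlapped with it.

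The largest decrease was that of Y55D5A.1 (chromosome III, 2982409 to 2988150), which had 1, 2 and 3 counts in the F15 libraries. Its level was 0.123, 0.240 and 0.274 CPM in F15 mutants, against 158, 79.0 and 54.1 CPM in wild type. The pooled F15 level was 0.280% of the pooled wild-type level (95% counting interval 0.102% to 0.610%, which covers counting error only). Its partner on the opposite strand, Y55D5A.4, overlaps it by 73 bases and was lower too (log2 fold change -3.31, SE 0.87, adjusted p = 0.0207, edgeR). That call was lost without any 1 of the F15 libraries, in order (adjusted p = 0.0593, 0.0638 and 0.0773), and without the second wild-type library (0.0629).

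The gene ndx-2, of the Nudix hydrolase family (chromosome V, 2662964 to 2665003), had 3.20, 5.40 and 2.19 CPM in F15 mutants, against 579, 576 and 554 CPM in wild type (a log2 fold change of -7.18, SE 0.93, adjusted p = 5.29e-05, edgeR). T05G5.4 had 2.34, 2.52 and 0.823 CPM in F15 mutants, against 204, 190 and 179 CPM in wild type (-6.56, SE 0.97, adjusted p = 0.000190). The fard-1 gene, for a fatty acyl-CoA reductase, had 0, 0.240 and 0.823 CPM in F15 mutants, against 46.5, 37.5 and 32.2 CPM in wild type (-6.34, SE 0.71, adjusted p = 1.38e-05). All F15 libraries were at least an order of magnitude below wild type in these genes. For fard-1 the phenol wild-type libraries had 0 to 0.316 CPM, as low as the F15 libraries, and for T05G5.4 they had 12.8 to 40.8 CPM. For ndx-2 they had 414 to 548 CPM, far above the F15 level.

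The remaining large decreases lay between -5.93 and -5.37 on the log2 scale and comprised Y34D9A.8, K08D12.4, F31C3.6, T25D3.3, cdk-14 and ser-5. The serotonin receptor gene ser-5 (chromosome I, 8384931 to 8387039) had 2.95, 2.52 and 0.823 CPM in F15 mutants, against 44.5, 85.5 and 150 CPM in wild type (a log2 fold change of -5.37, SE 0.61, adjusted p = 1.49e-05, edgeR). The cyclin-dependent kinase family gene cdk-14 had 11.2, 6.61 and 4.21 CPM in F15 mutants, against 474, 342 and 170 CPM in wild type (-5.40, SE 0.70, adjusted p = 5.46e-05). Wild type varied more than 2-fold in both genes, yet its lowest library was over 10-fold above the highest F15 library. Y34D9A.8 had 11.8, 3.84 and 2.83 CPM in F15 mutants, against 467, 405 and 310 CPM in wild type (-5.93, SE 1.01, adjusted p = 0.000752).

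The decreases that removed the most CPM were in genes with abundant small RNAs in wild type. The gene gsa-1, for the stimulatory G protein alpha subunit (chromosome I, 1068484 to 1074343), had 327, 230 and 59.4 CPM in F15 mutants, against 1009, 1011 and 1152 CPM in wild type (a log2 fold change of -2.31, SE 0.41, adjusted p = 0.00102, edgeR; 0.0572 with the replicate block). The fatty acid amide hydrolase family gene faah-5 had 153, 82.3 and 80.0 CPM in F15 mutants, against 1326, 1128 and 898 CPM in wild type (-3.29, SE 0.37, adjusted p = 1.48e-05). The cadherin family gene cdh-12 had 347, 277 and 153 CPM in F15 mutants, against 1288, 1335 and 1154 CPM in wild type (-2.18, SE 0.34, adjusted p = 0.000317). All 3 F15 libraries were below wild type in each, and the third was the lowest in each, though for faah-5 the second was close to it. W03D8.7, Y54E2A.4 and the pseudogene WBGene00045077 completed this set with log2 fold changes of -2.18, -2.14 and -1.69. The last of these had an adjusted p of 0.0593 with the replicate block.

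**Figure D5:**
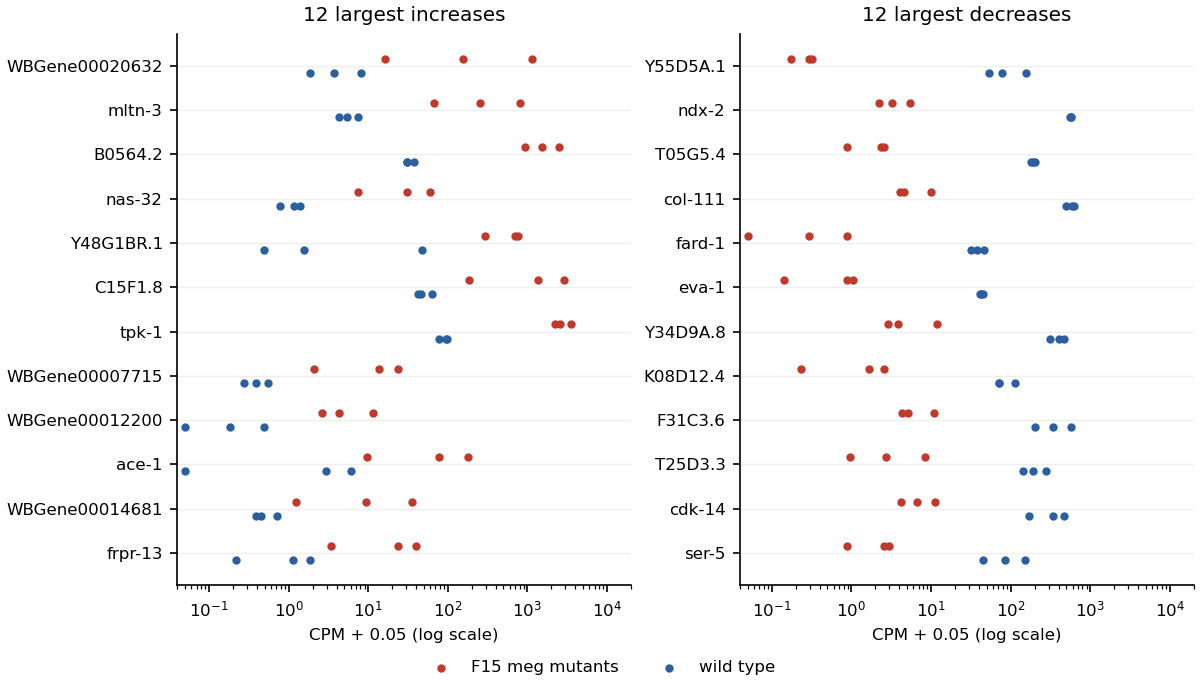
CPM + 0.05 (log scale) of the 12 features with the largest called increase, left, and decrease, right, among those with at least 5 CPM in the higher group and no overlap between groups; each point is 1 library, F15 meg mutants (red) above wild type (blue). The F15 points of tpk-1 lie at 2240 to 3560 CPM, while those of WBGene00020632 spread from 16.2 to 1154 CPM.

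Of the 12 largest increases tpk-1 had the smallest SE. It encodes thiamine pyrophosphokinase, which makes the active form of vitamin B1. The tpk-1 gene (chromosome III, 8912144 to 8913632) had 2240, 2567 and 3560 CPM in F15 mutants, against 76.7, 96.8 and 95.7 CPM in wild type (a log2 fold change of 5.18, SE 0.29, adjusted p = 4.12e-09, edgeR). Phenol wild type had 96.2 to 128 CPM, so every F15 library was over 10-fold above every wild-type library of either kind.

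B0564.2 (chromosome IV, 13107659 to 13111500), next to rde-11, had 2497, 932 and 1544 CPM in F15 mutants, against 30.4, 37.5 and 30.9 CPM in wild type (a log2 fold change of 5.80, SE 0.42, adjusted p = 1.78e-07, edgeR). It shares bases with best-1 and best-2 on the opposite strand. Its first F15 library was the highest, whereas for rde-11 the third was. Another adjacent pair was on chromosome II: mltn-3, named for its relation to a molting gene, had 814, 257 and 67.4 CPM in F15 mutants, against 4.25, 7.37 and 5.31 CPM in wild type (6.09, SE 0.98, adjusted p = 0.000443). The pseudogene WBGene00012200, 877 bases from mltn-3, had 11.6, 4.20 and 2.56 CPM in F15 mutants, against 0.447, 0 and 0.134 CPM in wild type (5.08, SE 1.42, adjusted p = 0.0293). Both were highest in the first F15 library and lowest in the third. The call of WBGene00012200 was lost without the first F15 library (adjusted p = 0.0769) and without any 1 of the wild-type libraries, in order (0.0582, 0.119 and 0.116).

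Another such pair, the pseudogenes WBGene00014681 and WBGene00007715, lies 2374 bases apart on chromosome V. Further features within 20000 bases of this pair were also called higher. WBGene00014681 had 35.2, 9.25 and 1.19 CPM in F15 mutants, against 0.671, 0.335 and 0.403 CPM in wild type (a log2 fold change of 5.04, SE 0.93, adjusted p = 0.00163, edgeR; 0.0560 with the replicate block and 0.145 by limma-voom). WBGene00007715 had 24.0, 13.7 and 2.01 CPM in F15 mutants, against 0.224, 0.502 and 0.336 CPM in wild type (5.16, SE 0.75, adjusted p = 0.000152). Here the first F15 library was the highest and the third the lowest. Reads could be split between copies of such a pair, and how reads with several matches were counted is not given in the sources used here.

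Other large increases differed widely between the F15 libraries. The SET domain gene set-23, of a histone methyltransferase family (chromosome IV, 1601657 to 1605610), had 715, 4221 and 7434 CPM in F15 mutants, against 177, 214 and 230 CPM in wild type (a log2 fold change of 4.62, SE 0.60, adjusted p = 5.81e-05, edgeR; 0.0777 with the replicate block). C15F1.8 had 1356, 187 and 2878 CPM in F15 mutants, against 42.0, 46.2 and 62.5 CPM in wild type (5.18, SE 0.81, adjusted p = 0.000360; 0.0763 with the block). The acetylcholinesterase gene ace-1 had 9.59, 78.3 and 177 CPM in F15 mutants, against 2.91, 0 and 6.12 CPM in wild type (5.05, SE 0.94, adjusted p = 0.00173; 0.102 with the block and 0.0797 by limma-voom). The groups did not overlap, but the F15 libraries of each gene differed among themselves by more than 10-fold. The same held for the pseudogene WBGene00020632, the largest increase, with 16.2, 153 and 1154 CPM in F15 mutants, against 1.79, 3.68 and 8.00 CPM in wild type (6.92, SE 1.55, adjusted p = 0.00734). Its call was lost without the third F15 library (log2 fold change 4.12, adjusted p = 0.0640) and by limma-voom (0.114), and phenol wild type, at 14.1 to 19.4 CPM, overlapped with the F15 libraries.

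The astacin protease family gene nas-32, Y48G1BR.1 and the peptide receptor family gene frpr-13 completed the largest increases, with log2 fold changes of 5.32, 5.29 and 4.66. Y48G1BR.1 had 708, 296 and 758 CPM in F15 mutants, against 0.447, 1.51 and 47.7 CPM in wild type, and up to 230 CPM in a phenol wild-type library. Wild type thus varied for this gene by more than an order of magnitude, and its call was lost without the first or second wild-type library (adjusted p = 0.0501 and 0.0580). For frpr-13, with 3.32, 39.4 and 23.3 CPM in F15 mutants, against 1.79, 0.167 and 1.08 CPM in wild type, the adjusted p was 0.126 with the replicate block and 0.144 by limma-voom.

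The 6 largest gains in mean CPM were those of Y54G11A.14, set-23, W04A8.2, sqst-1, qdpr-1 and WBGene00021037, in falling order. The gene qdpr-1, for quinoid dihydropteridine reductase (chromosome III, 13393910 to 13394979), had 3074, 3336 and 4390 CPM in F15 mutants, against 321, 306 and 276 CPM in wild type (a log2 fold change of 3.78, SE 0.34, adjusted p = 1.28e-06, edgeR). W04A8.2 (chromosome I, 13840704 to 13841937) had 3147, 4074 and 5270 CPM in F15 mutants, against 222, 252 and 300 CPM in wild type (4.23, SE 0.39, adjusted p = 1.70e-06). The replicates of these genes were close to one another. The gene W04A8.4, which overlaps W04A8.2 by 45 bases, moved the other way, with 10.8, 9.97 and 1.65 CPM in F15 mutants, against 36.5, 34.1 and 36.0 CPM in wild type (-2.20, SE 0.40, adjusted p = 0.00148, and 0.0671 with the replicate block). Other features within 20000 bases of W04A8.2 were also called lower.

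Y54G11A.14 and sqst-1 had high levels in wild type as well. The sqst-1 gene, for the autophagy receptor sequestosome, had 6289, 6649 and 9592 CPM in F15 mutants, against 3633, 3791 and 4261 CPM in wild type (a log2 fold change of 1.16, SE 0.26, adjusted p = 0.00687, edgeR). Y54G11A.14 had 8765, 8308 and 13935 CPM in F15 mutants, against 6409, 5494 and 4545 CPM in wild type (1.13, SE 0.34, adjusted p = 0.0431). Both calls were lost without the third F15 library (adjusted p = 0.0576 and 0.386) and with the replicate block (0.192 and 0.300), and that of Y54G11A.14 also without any 1 of the wild-type libraries, in order (0.0615, 0.128 and 0.140). The pseudogene WBGene00021037 had 3646, 3490 and 6110 CPM in F15 mutants, against 1107, 1101 and 1246 CPM in wild type (2.17, SE 0.28, adjusted p = 4.47e-05; 0.0540 with the block).

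Features called in the same direction often lay next to each other. Of the 263 features called higher, 52 (19.8%) had a neighbouring tested feature that was also called higher, and 4.90% of all tested features had such a neighbour. Of 634 features called lower with a position, 147 (23.2%) adjoined another one called lower, against 11.8% of all tested features. Overlapping and adjacent features can share reads, and the part of this in the counts was not tested. Along the chromosomes, 404 of 4163 features in the outer parts of the autosomes (25% at each end of the annotated span) were called lower (9.70%), against 180 of 4915 in the middle 50% (3.66%). On chromosome X the share was 4.44%. By wild-type level, the share called lower was 1.37% under 5 CPM, 14.5% at 100 to 500 CPM and 10.2% over 500 CPM. The share called higher was 2.03%, 4.02% and 7.53%. The wild-type level is part of the contrast and low counts limit what can be called, so these shares are a description.

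Of 56 tested germline and oocyte genes, gld-1 and htp-3 were called higher (3.57%, against 2.57% of all features). Only tra-1 was called lower (1.79%, against 6.21%), and the median log2 fold change was 0.17. The translational repressor gene gld-1 averaged 108 ± 2.31 CPM in F15 mutants and 83.0 ± 7.53 CPM in wild type, and htp-3, of the meiotic chromosome axis, 199 ± 14.1 CPM in F15 mutants and 152 ± 19.4 CPM in wild type (SD, n = 3 each). The sex determination gene tra-1 averaged 62.7 ± 19.5 CPM in F15 mutants and 99.3 ± 5.28 CPM in wild type. These changes were 0.55, 0.56 and -0.55 on the log2 scale, with adjusted p of 0.0244, 0.0327 and 0.0485 (edgeR). None was called without the third F15 library (adjusted p = 0.205, 0.220 and 0.186) or with the replicate block (0.115, 0.141 and 0.0835), and with total-count scaling the adjusted p were 0.229, 0.316 and 0.0796. The calls were also lost without the first wild-type library (adjusted p = 0.0639, 0.144 and 0.176) and without the second (0.119, 0.0717 and 0.0735). Without the third wild-type library htp-3 and tra-1 had 0.0619 and 0.0850, and without the second F15 library tra-1 had 0.0866.

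Of 79 sperm genes 18 passed the filter, with a median log2 fold change of -0.03. Of the 18, 2 were called lower and 1 higher, against 6.21% lower and 2.57% higher over all features. Only 8 of the 18 had at least 10 counts in all 3 F15 and all 3 wild-type libraries. Among these 8, 2 were called lower, against 6.66% of all such features, and none higher, so fer-1 is not among them. The sperm calcium channel gene spe-41 had 16.4, 19.1 and 13.1 CPM in F15 mutants, against 54.6, 65.5 and 82.4 CPM in wild type (a log2 fold change of -1.91, SE 0.41, adjusted p = 0.00498, edgeR). For spe-47 the levels were 12.0, 20.1 and 7.77 CPM in F15 mutants, against 35.8, 45.4 and 61.3 CPM in wild type (-1.72, SE 0.38, adjusted p = 0.00717; 0.0542 without the third F15 library). The ferlin gene fer-1, needed for membrane fusion in sperm, had 6.52, 3.48 and 2.47 CPM in F15 mutants, against 0, 1.67 and 0.874 CPM in wild type (2.31, SE 0.69, adjusted p = 0.0430; 0.219 with the replicate block and 0.0611 with total-count scaling). The fer-1 call was lost without any 1 of the F15 libraries, in order (adjusted p = 0.115, 0.0575 and 0.0697) and without the first or the third wild-type library (0.125 and 0.121). All 3 genes separated the groups, in opposite directions.

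Of 58 tested replication-dependent histone genes 4 were called higher, his-4, his-16, his-41 and his-68, against 2.57% of all features, and the median log2 fold change was 0.41. The his-4 gene had 24.3, 40.0 and 72.5 CPM in F15 mutants, against 9.62, 21.1 and 19.4 CPM in wild type (a log2 fold change of 1.71, SE 0.42, adjusted p = 0.0141, edgeR). Without the third F15 library none of the histone genes was called by edgeR (8 had an unadjusted p under 0.05), and with the replicate block only his-16 was, while his-4, his-41 and his-68 had adjusted p of 0.0768, 0.0626 and 0.168. The his-4 call was also lost without the first wild-type library (0.0757), that of his-16 without the second (0.0731), and that of his-41 without any 1 of the 3, in order (0.0816, 0.137 and 0.0851), or with total-count scaling (0.0703). That of his-68 was lost without the third wild-type library (0.0812). Histone genes are near-identical copies, so the counts of single members are uncertain. None of 80 ribosomal protein genes was called by edgeR, against 8.78% of all features. Their median was -0.25 with 68 of 80 negative, whereas with the replicate block edgeR called 3 lower. At an unadjusted p under 0.05 it had 8 of them, all lower, while DESeq2 called 4 and limma-voom 5 lower. Of 24 chromatin genes 1 was called lower (4.17%, against 6.21% of all features), and the median was 0.20. This was lin-15B, a repressor of germline genes in the soma. It averaged 63.3 ± 20.2 CPM in F15 mutants and 159 ± 34.2 CPM in wild type (SD, n = 3 each, log2 fold change -1.22, SE 0.23, adjusted p = 0.00205, edgeR).

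Chemoreceptor genes, a large family that acts in sensory neurons, gave 9 decreases and 2 increases among 73 of 1293 genes that passed the filter, with a median log2 fold change of -0.46. Over all features 6.21% were called lower and 2.57% higher. Of the 27 chemoreceptor genes with at least 10 counts in all 6 libraries, 6 were called lower, against 6.66% of all such features. Without the third F15 library edgeR called 4 lower and 1 higher among 71 tested, and with the replicate block also 4 lower and 1 higher, among 60. The sra-35 gene had 66.9, 93.1 and 14.0 CPM in F15 mutants, against 421, 361 and 379 CPM in wild type (a log2 fold change of -2.69, SE 0.59, adjusted p = 0.00583, edgeR). In the other direction srh-60 had 3.44, 1.92 and 5.12 CPM in F15 mutants, against 0, 0.167 and 0.403 CPM in wild type (3.96, SE 0.74, adjusted p = 0.00170). Both separated the groups, and 33 of the 73 overlap another gene.

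By annotated type, protein-coding genes had 208 increases and 557 decreases among 9109 tested, and pseudogenes 27 (4.98%) and 56 (10.3%) among 542, against 2.57% higher and 6.21% lower over all features. Of 59 small nucleolar RNA genes 11 were called higher (18.6%, against the same 2.57%) and 1 lower, with a median log2 fold change of 0.67. The features named in this paragraph were singled out after their values were seen. The snoRNA gene C14E2.12 had 120, 234.8 and 342 CPM in F15 mutants, against 18.1, 21.3 and 31.4 CPM in wild type (a log2 fold change of 3.54, SE 0.44, adjusted p = 3.77e-05, edgeR). F43A11.8 had 364, 395 and 491 CPM in F15 mutants, against 35.8, 63.6 and 84.3 CPM in wild type (2.97, SE 0.39, adjusted p = 6.47e-05). Of 9 ribosomal RNA features 3 were called higher (33.3%, against 2.57% of all features). Of these, 2 carry the same name, rrn-1.1, and had nearly the same F15 levels (180, 178 and 459 CPM, and 178, 175 and 464 CPM), so they may not be separate results. For rrn-3.1 the groups overlapped, with 1643 CPM in 1 F15 library and 1830 CPM in 1 wild-type library (adjusted p = 0.0487, edgeR). The ribosomal RNA class took 0.332%, 0.379% and 0.623% of the counts in F15 mutants, against 0.259%, 0.334% and 0.218% in wild type. The share of snoRNA features was 0.245%, 0.304% and 0.439% in F15 mutants, against 0.221%, 0.206% and 0.214% in wild type. The third F15 library was the highest for both classes. Whether these counts are breakdown products or antisense small RNAs was not tested.

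Long intergenic RNA genes had 7 decreases (14% of 50 tested, against 6.21% of all features) and 1 increase (linc-6, above; 2%, against 2.57%). F40H3.6 had 0.123, 0.600 and 0 CPM in F15 mutants, against 4.70, 16.1 and 9.41 CPM in wild type (a log2 fold change of -5.20, SE 0.86, adjusted p = 0.000549, edgeR), named after its values were seen. Of 84 tested piRNA genes 1 was called lower (1.19%, against 6.21% of all features). Of 11 tested microRNA genes none was called by edgeR, DESeq2 or limma-voom, with 1 at an unadjusted p under 0.05 in edgeR. The median log2 fold changes were 0.44 for piRNA and 0.53 for microRNA genes. Only 11 of 257 microRNA genes passed the filter, with a median wild-type level of 2.70 CPM. In each of the 6 libraries microRNA features took 0.00735% to 0.0177% of the counts and piRNA features 0.0497% to 0.0760%. With so few counts, the lack of calls does not show that either class was unchanged.

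The F15 mutants could also be set against the double mutants most like them, which carry the same alleles. The mutant F2 progeny of the same cross differed from F15 mutants in 93 features (0.909% of those tested), and mutants kept for more than 80 generations in 534 (5.22%), by edgeR at an adjusted p under 0.05. These comparisons share the F15 libraries with the one against wild type. Small RNAs against sid-1 averaged 1442 ± 763 CPM in F15 mutants and 7458 ± 984 CPM in long-term mutants (SD, n = 3 each; log2 fold change -2.49, adjusted p = 0.000426). The set-23 gene went the other way, with 4123 ± 3361 CPM in F15 mutants and 533 ± 84.2 CPM in long-term mutants (2.84, adjusted p = 0.00644). For ndx-2 the mean was 3.60 ± 1.64 CPM in F15 mutants and 168 ± 180 CPM in the F2 mutants of the cross (-5.61, adjusted p = 0.00231), where the spread between libraries exceeded the mean. For tpk-1 it was 2789 ± 687 CPM in F15 mutants and 819 ± 108 CPM in F2 mutants (1.82, adjusted p = 0.00111).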

How the data were processed

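Small RNA libraries from dissected gonads were deposited by the authors as whole-number counts per gene feature, with no normalization. The submitters' processing notes name cutadapt, FastQC, HTSeq, DESeq2 and the ce11 build, with no role. The aligner, the handling of reads with several matches and the use of strand are not given in the sources used here. Closing tallies (no feature, ambiguous, not aligned) were left out: 56.3% to 59.5% of tallied reads in the 6 libraries were assigned to a feature. Of 46779 features, 46603 had an entry in the WBcel235 annotation (Ensembl release 115), which gave names, types and coordinates.

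Groups were taken from the labels. The filter kept features with 10 or more counts in 3 or more of the 21 column-kit libraries; these were scaled by trimmed mean of M values (TMM) and tested with edgeR 4.0.16 in R 4.3.3 (quasi-likelihood F test, two-sided, Benjamini-Hochberg adjustment over all 10230 features). The 21 libraries were fitted together, 1 mean per group, so they share 1 estimate of spread. CPM values use total feature counts, without TMM. SE is |log2 fold change| over the root of the F statistic. Exact Poisson-based intervals cover counting error only. Alternatives were other scalings and filters, DESeq2 1.42.0, limma-voom (limma 3.58.1), the 6 libraries alone, a replicate block, and each library left out; 1 alternative was chosen after seeing the data. Groups share replicate numbers in the labels. Deviations from the group mean correlated weakly between same-numbered libraries (r = 0.124, 0.109 and 0.185). The labels do not say that the numbers pair the libraries. The main test used no block and so ignores any such pairing, and the replicate block was fitted as an alternative.

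Named genes were the 12 largest changes in each direction among called features without overlap and with at least 5 CPM in the higher group, the 6 largest gains and losses in mean CPM, called members of gene lists (the 3 most changed of large families), and a few fixed genes. Members and lists were chosen with earlier results of these data known. On simulated counts for 10230 features the test found 31 of 100 features changed by 1 on the log2 scale and 94 of 100 changed by 3, with 10 false calls. It made 0 calls in a simulation without changes. Libraries were drawn independently with the same dispersion in every group, with no outlying library and no pairing. Changes were placed only in features with enough expected counts. The simulation therefore does not measure the error rate in the real libraries. Figures were drawn with Python 3.11.15 and matplotlib 3.10.9.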

Additional observations from a re-analysis of the deposited data

Results flagged for a closer look

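For the named features below, the F15 double mutants differed from another group of double mutants by edgeR's own test of that difference, with Benjamini-Hochberg adjustment over all features. Against the mutant F2 progeny of the same cross, F15 levels were lower for ndx-2 (log2 fold change -5.61), T05G5.4 (-4.99), Y34D9A.8 (-4.63), cdk-14 (-4.25), ser-5 (-2.96), col-38 (-2.35), faah-5 (-2.15) and Y54E2A.4 (-2.48), with adjusted p between 0.000224 and 0.0366. For Y54E2A.4, the smallest of these p, the mean was 224 ± 28.7 CPM in F15 mutants and 1235 ± 368 CPM in F2 mutants (SD, n = 3 each). The F15 levels were higher than in F2 mutants for set-23 (3.63), B0564.2 (2.52), tpk-1 (1.82) and W04A8.2 (1.80).

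Against the long-term mutants, F15 levels were lower for sid-1 (log2 fold change -2.49) and higher for set-23 (2.84) and Y48G1BR.1 (7.69; 587 ± 254 CPM in F15 mutants and 2.28 ± 3.83 CPM in long-term mutants, SD, n = 3 each). The adjacent pseudogenes WBGene00014681 and WBGene00007715 were lower in F15 mutants than in both other groups. The first had log2 fold changes of -6.03 against long-term and -3.78 against F2 mutants, and the second had -6.63 and -3.50. WBGene00007715 averaged 13.2 ± 11.0 CPM in F15 mutants, against 1039 ± 379 CPM in long-term and 137 ± 50.8 CPM in F2 mutants. The third long-term library held 126214 counts. Causes of these differences were not tested.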

How the results depend on the processing

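None of the 57 called named features changed its direction under the 16 alternatives, and 32 of the 57 kept their call in each of them. Among named features that were not called, gfp and mex-5 did change sign. Their log2 fold changes were 0.15 and 0.09 in the main fit, and -0.13 and -0.0008 without the third F15 library. Without a filter on low counts 1399 features were called (1007 lower). The 6 libraries alone gave 635 calls (120 higher), and with the replicate block 479 (93 higher, 386 lower). The block ended 19 calls of features named by the rule and, among those named outside it, those of his-68, linc-6, F52D2.12 and W04A8.4, each given beside its result, and no other call of these features; meg-3 had a log2 fold change of -1.82 with it. With limma-voom 987 features were called lower and meg-4 had -2.39. With 1 library left out, 505 to 904 features were called, 134 to 278 higher and 371 to 626 lower, with 6 to 10 collagen genes lower; meg-3 ranged from -2.07 to -1.60 and meg-4 from -2.60 to -2.11. The fewest calls, in either direction too, came without the third F15 library; without the first or second wild-type library 602 and 594 features were called, 152 and 142 of them higher. Fewer libraries leave fewer degrees of freedom, and what else contributes was not tested. Relative to the 0.05 median of all features under the main scaling, the median was -0.04 with DESeq2-type size factors and -0.10 with total counts, and the share of calls that were higher was 29.3%, 22.5% and 20.9%. Depth limits the low features: 3 counts were 0.202 to 0.671 CPM.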
